A study of Caenorhabditis elegans with 8 samples.

Results

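The transcripts of 10 genes of superoxide and peroxide defence were followed in whole young adult Caenorhabditis elegans, out of 41560 rows of 1 expression table. They were taken by name and comprise the superoxide dismutase genes sod-1, sod-2, sod-3, sod-4 and sod-5, the catalase genes ctl-1, ctl-2 and ctl-3, the peroxiredoxin gene prdx-2 and the methionine sulfoxide reductase gene msra-1. The worms were daf-16 mutants carrying the mgDf50 allele or the wild-type strain N2, raised on NGM agar at 20 °C on Escherichia coli, which was either BW25113 lacking hns or BW25113 itself. The gene hns encodes H-NS, a nucleoid protein that represses many bacterial genes. The groups were daf-16 with hns food, daf-16 with BW25113 food, wild type with hns food and wild type with BW25113 food, with 2 libraries each. Nothing in the labels tells whether both libraries of a group were grown apart, and a p-value here measures only how far the samples spread, which may be technical. The mutant was represented by 1 allele. RNA came from whole animals, so a difference in the number of cells of a type and a difference in RNA per cell cannot be told apart.

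Superoxide dismutases turn superoxide into hydrogen peroxide and oxygen, catalases break hydrogen peroxide into water and oxygen, and peroxiredoxins reduce it with electrons from thioredoxin. Methionine sulfoxide reductases repair methionine residues that such oxidants have damaged. DAF-16 is the FOXO transcription factor held in check by insulin-like signalling in the worm, and sod-3 is one of its most used readouts in worms with reduced insulin signalling. The study's title names DAF-16 activation by hns-deficient bacteria as its subject, and the comparisons ask whether these transcripts differed with the food, with daf-16, or with the food in one genotype more than in the other.

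With hns food msra-1 was 3.3-fold lower and ctl-2, the peroxisomal catalase gene, was 1.8-fold higher than with BW25113 food in both genotypes, with no overlap between the 4 hns and the 4 BW25113 libraries, a separation shared by 4.19% of tested genes in the lower and 6.33% in the higher direction. Both passed the test averaged over genotypes. Taken by genotype, ctl-2 just missed the threshold in daf-16 and just passed it in wild type, where several other processing choices lost the call. The sod-3 transcript stood at less than 5 FPKM in every library and did not pass the test for food in either genotype. It was lower in all 4 daf-16 than in all 4 wild-type libraries, a separation seen in that direction for 2.15% of tested genes. Its difference between genotypes passed on neither food, nor averaged over foods. The abundant genes sod-1, sod-2 and prdx-2 stayed within 1.24-fold across all 8 libraries. The weakly expressed sod-5 was higher in all 4 libraries of worms with hns food but lay below the level needed for testing, at roughly 3 to 13 fragments per library. That separation was seen for 6.33% of tested genes, a set that leaves out sod-5.

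Values are FPKM as deposited, a unit that scales fragments to transcript length and to the size of the library. Comparison of levels between genes rests on that scaling and is approximate. Tests were made with limma on log2(FPKM + 1), where 1 is the pseudocount, over the 14564 genes that reached 1 FPKM in 2 or more of the 8 libraries, and a Benjamini-Hochberg adjusted p under 0.05 counted as passing. Of the 10 genes 9 entered the test, sod-5 being left out. FPKM summed to between 2128460 and 2508481 per library. Low values of long single-transcript genes fitted best with about 24100000 to 26700000 fragments per library. At that depth only 61.6% to 66.4% of them lay within 0.15 of a whole fragment, so the depth is approximate. A depth fixed beforehand would give 30% by chance. The depth was instead chosen to make this percentage highest, so 30% is not a matching baseline. Replicates correlated with Pearson's r of 0.969 to 0.975 across genes, which are not independent replicates. The daf-16 transcript averaged 16.8 ± 1.36 FPKM and 18.7 ± 0.668 FPKM in the mutant with hns and BW25113 food, against 72.7 ± 4.04 FPKM and 77.3 ± 0.183 FPKM in wild type (SD, n = 2 each). Lists of markers for intestine, hypodermis, muscle, neurons, germline, oocytes with eggshell, embryos and sperm had no gene at 0 in a whole group.

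**Figure D1:**
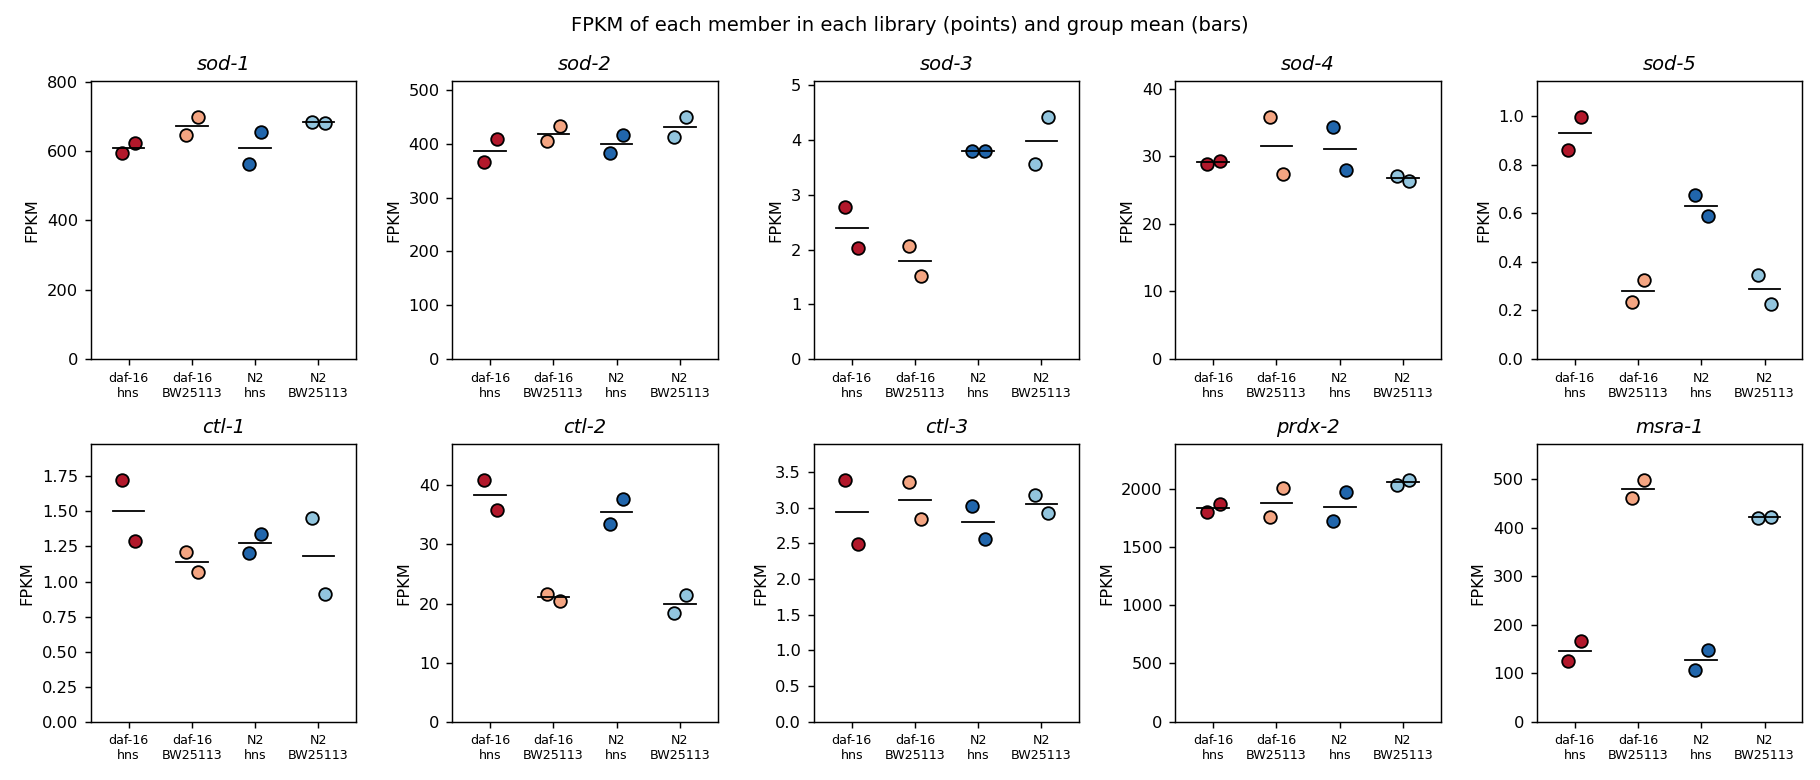
FPKM of each of the 10 genes in each library (points) with the group mean (horizontal bars), for daf-16 and N2 worms on hns or BW25113 food, every axis starting at 0. The hns libraries lie above the BW25113 libraries for ctl-2 and sod-5 and below them for msra-1, and the 4 daf-16 libraries lie below the 4 N2 libraries for sod-3.

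Among the superoxide dismutases, sod-1, which encodes the main cytosolic copper and zinc enzyme, was the most abundant. It had 596 and 622 FPKM in daf-16 with hns food against 645 and 697 FPKM with BW25113 food, and 563 and 655 FPKM in wild type with hns food against 683 and 682 FPKM with BW25113 food. In each genotype both libraries with hns food were lower than both with BW25113 food, a pattern shared by 14.7% of tested genes in daf-16 and 28.9% in wild type. The limma log2 fold change between foods was -0.14 in daf-16 (95% interval -0.35 to 0.07, adjusted p = 0.842) and -0.17 in wild type (-0.38 to 0.05, adjusted p = 0.388). Averaged over genotypes it was -0.15 ± 0.06 (SE), with an interval of -0.305 to -0.00278 and a limma adjusted p of 0.257.

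The gene sod-2 encodes the main mitochondrial manganese enzyme. It had 366 and 409 FPKM in daf-16 with hns food against 405 and 433 FPKM with BW25113 food, and 384 and 417 FPKM in wild type with hns food against 413 and 449 FPKM with BW25113 food. The foods overlapped in both genotypes. The limma log2 fold change averaged over genotypes was -0.11 ± 0.06 (SE, interval -0.26 to 0.04, adjusted p = 0.354).

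Together sod-1 and sod-2 held nearly all superoxide dismutase FPKM. The share of sod-1 in the summed FPKM of the 5 genes was 57.1% to 60.6% over the 8 libraries and that of sod-2 was 36.6% to 38.9%. The extracellular copper and zinc enzyme gene sod-4 held 2.27% to 3.48%. Its levels were 28.9 and 29.3 FPKM in daf-16 with hns food, 35.8 and 27.3 FPKM in daf-16 with BW25113 food, 34.3 and 27.99 FPKM in wild type with hns food and 27.1 and 26.3 FPKM in wild type with BW25113 food. Replicate 1 set the high value in daf-16 with BW25113 food and in wild type with hns food, and the foods overlapped in daf-16 but not in wild type, where 25.3% of tested genes also lay higher without overlap. The limma log2 fold change between foods was -0.10 ± 0.15 in daf-16 and 0.21 ± 0.15 in wild type (SE, adjusted p = 0.906 and 0.485). The gene ctr-9 shares 175 nt of exon with sod-4 on the opposite strand, and had 90.9 to 95.9 FPKM with hns food against 97.2 to 104 FPKM with BW25113 food.

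The inducible mitochondrial manganese enzyme gene sod-3 was weakly expressed, its mean being above that of 22.1% of tested genes. It had 2.77 and 2.02 FPKM in daf-16 with hns food and 2.06 and 1.51 FPKM in daf-16 with BW25113 food, against 3.80 and 3.80 FPKM in wild type with hns food and 3.56 and 4.41 FPKM in wild type with BW25113 food. All 4 daf-16 libraries were lower than all 4 wild-type libraries, a separation seen in the lower direction for 2.15% of tested genes and in the higher direction, which none of the 9 showed, for 4.22%. On BW25113 food the mutant's mean was 2.23-fold lower, and the limma log2 fold change was -0.84 ± 0.19 (SE, interval -1.30 to -0.39, adjusted p = 0.225). On hns food it was 1.59-fold lower, with a log2 fold change of -0.51 ± 0.19 (interval -0.96 to -0.05, limma adjusted p = 0.589). Averaged over the foods the difference was -0.68 ± 0.13 and missed the threshold (limma adjusted p = 0.0984, 0.0802 to 0.259 over the alternatives). In the same contrast all 9 hypodermis and all 10 muscle markers tested lay higher in daf-16, and 10 of 12 neuron markers lower. Their medians were 0.39, 0.30 and -0.26 against 0.00 over all genes, of which 50.5% lay higher. Of the other lists, all 4 sperm markers lay higher (median 0.23) and 9 of 11 oocyte and eggshell markers lower (-0.14). For intestine, germline and embryo markers the medians were 0.05, -0.03 and 0.10. By food, 9 of 9 hypodermis markers lay higher on BW25113 food (median 0.81) and 4 of 9 on hns food (-0.07). The summed FPKM of hypodermis markers ranged from 1217 to 1942 in daf-16 against 903 to 1634 in wild type. For muscle markers it ranged from 2591 to 3535 against 2387 to 2628, and for neuron markers from 597 to 665 against 615 to 728. The part of these markers in the sod-3 values was not tested.

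For the food comparison, which bears most directly on the title's subject, the sod-3 groups overlapped in each genotype. In daf-16 the limma log2 fold change with hns food was 0.28 ± 0.19 (SE, interval -0.17 to 0.74, adjusted p = 0.853). In wild type it was -0.05 ± 0.19 (interval -0.50 to 0.40, adjusted p = 0.897), so that on the FPKM + 1 scale the interval reached no higher than 1.32-fold. At so low a level the added 1 shrinks fold changes, so the bound in FPKM itself is wider. The food effect in wild type minus that in daf-16 was -0.33 ± 0.27 (interval -0.98 to 0.31, limma adjusted p = 1.00). Of the summed FPKM of sod-2 and sod-3, the share of sod-3 was 0.347% to 0.753% in the daf-16 libraries against 0.856% to 0.980% in the wild-type libraries.

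The minor cytosolic copper and zinc enzyme gene sod-5 had 0.863 and 0.996 FPKM in daf-16 with hns food against 0.234 and 0.326 FPKM with BW25113 food. In wild type it had 0.677 and 0.588 FPKM with hns food against 0.347 and 0.226 FPKM with BW25113 food. All 4 libraries with hns food were higher than all 4 with BW25113 food, a separation seen in the higher direction for 6.33% of tested genes. That set leaves out sod-5, and no share was computed for genes as weakly expressed. No library reached 1 FPKM for sod-5. At the approximate depth these levels stand for 7 to 13 fragments with hns food against 3 or 4 with BW25113 food, and such numbers carry a large counting error. With no filter on low values the food effect averaged over genotypes was 0.47 ± 0.07 (SE) on the log2(FPKM + 1) scale, with a limma adjusted p of 0.0595 over 20796 genes, and with a pseudocount of 0.1 as well it was 1.19 with an adjusted p of 0.0927.

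**Figure D2:**
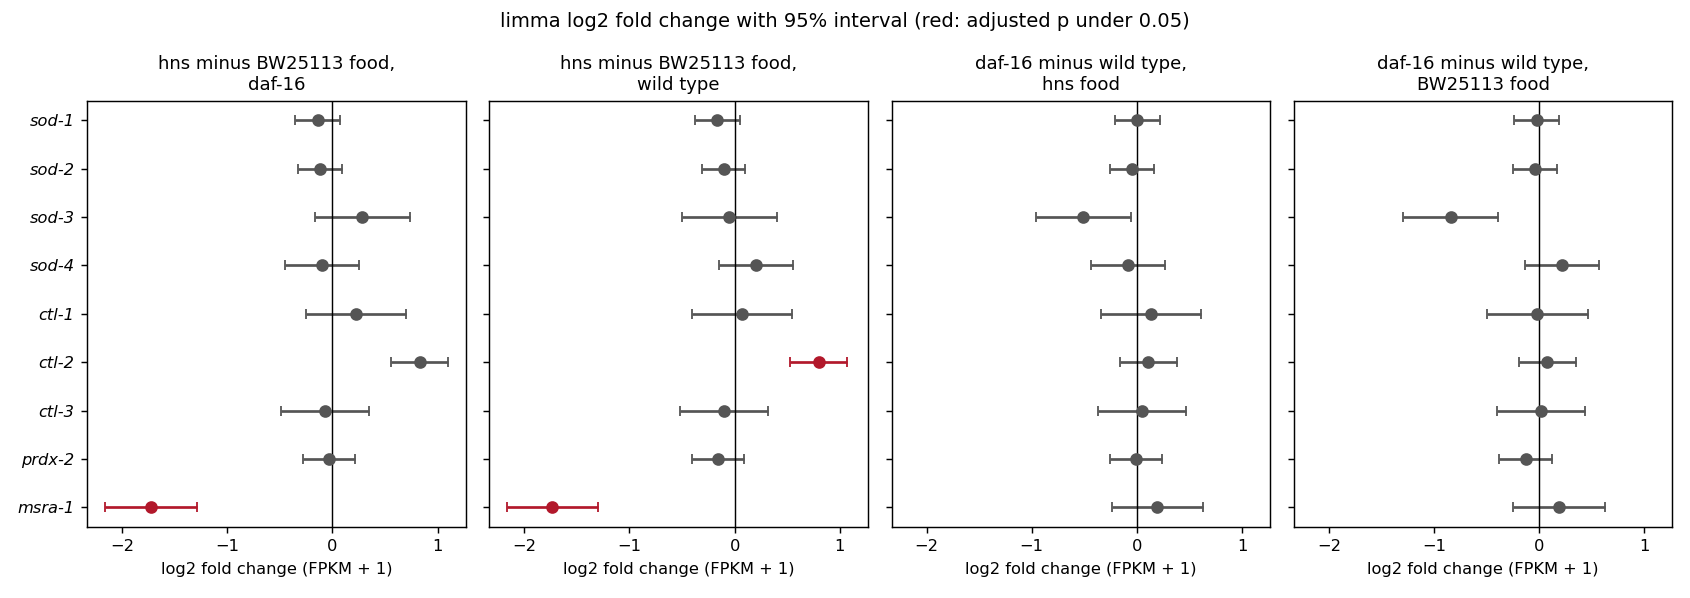
Limma log2 fold change of FPKM + 1 for the 9 tested genes (points) with 95% intervals (bars), for hns minus BW25113 food in daf-16 and in wild type and for daf-16 minus wild type on each food, red marking an adjusted p under 0.05. The values of msra-1 lie at -1.72 and -1.73 and those of ctl-2 at 0.83 and 0.80 in the food panels, and in the genotype panels no point is red, sod-3 lying farthest from 0.

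The 3 catalase genes follow each other in the annotation, in the order ctl-2, ctl-1, ctl-3, and encode closely related proteins. How the authors treated fragments that match more than 1 of them is not given in the sources used here, so the split between them is uncertain. The peroxisomal catalase gene ctl-2 had 40.9 and 35.8 FPKM in daf-16 with hns food against 21.7 and 20.5 FPKM with BW25113 food. In wild type it had 33.4 and 37.6 FPKM with hns food against 18.5 and 21.5 FPKM with BW25113 food. All 4 libraries with hns food were higher than all 4 with BW25113 food (6.33% of tested genes in that direction). In daf-16 the mean was 1.82-fold higher and missed the threshold, at 0.83 ± 0.11 on the log2 scale (SE, limma adjusted p = 0.0568). In wild type it was 1.78-fold higher and passed, at 0.80 ± 0.11 (limma adjusted p = 0.043). Averaged over the genotypes the change was 0.82 ± 0.08 with a limma adjusted p of 0.00864. The food effect in wild type minus that in daf-16 was -0.03 ± 0.16 (interval -0.41 to 0.35, limma adjusted p = 1.00). Genotype gave 0.11 ± 0.11 with hns food and 0.08 ± 0.11 with BW25113 food (limma adjusted p = 0.866 and 0.88).

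The call for ctl-2 in wild type was lost whichever 1 of the 8 libraries was left out (limma adjusted p of 0.0672 to 0.167), and also with no filter (0.0741), quantile normalization (0.086), no mean-variance trend (0.0502) or only the wild-type groups (0.157), although the log2 fold change stayed between 0.70 and 0.90. The averaged food effect passed in 15 of 16 alternatives, the exception being the fit that left out replicate 2 of the daf-16 BW25113 group (limma adjusted p = 0.0507).

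The cytosolic catalase gene ctl-1 stood close to 1 FPKM. It had 1.72 and 1.29 FPKM in daf-16 with hns food against 1.21 and 1.07 FPKM with BW25113 food, and 1.21 and 1.34 FPKM in wild type with hns food against 1.45 and 0.909 FPKM with BW25113 food. The foods overlapped in wild type and not in daf-16, where 19.3% of tested genes also lay higher without overlap. The limma log2 fold change between foods was 0.22 ± 0.20 in daf-16 and 0.07 ± 0.20 in wild type (SE, adjusted p = 0.859 and 0.86).

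For ctl-3, the last gene of the cluster, values ran from 2.49 to 3.39 FPKM in daf-16 and from 2.56 to 3.18 FPKM in wild type. Its limma log2 fold change between foods was -0.07 (interval -0.48 to 0.35) in daf-16 and -0.10 (-0.52 to 0.32) in wild type, with adjusted p of 0.947 and 0.768. These intervals did not reach those of ctl-2, which were 0.56 to 1.10 in daf-16 and 0.53 to 1.07 in wild type. The intervals of ctl-1, -0.26 to 0.70 in daf-16 and -0.41 to 0.55 in wild type, overlapped those of ctl-2. Under the scalings tried, the log2 fold change of ctl-2 was positive in both genotypes.

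Summed over the 3 genes, catalase FPKM was 46.0 and 39.6 in daf-16 with hns food against 26.2 and 24.4 with BW25113 food, and 37.6 and 41.5 in wild type with hns food against 23.1 and 25.3 with BW25113 food. The share of ctl-2 in the sum was 88.8% to 90.6% over the 4 libraries with hns food against 79.9% to 84.9% over the 4 with BW25113 food. The share of ctl-3 was 6.16% to 8.04% with hns food against 11.5% to 13.8% with BW25113 food.

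**Figure D3:**
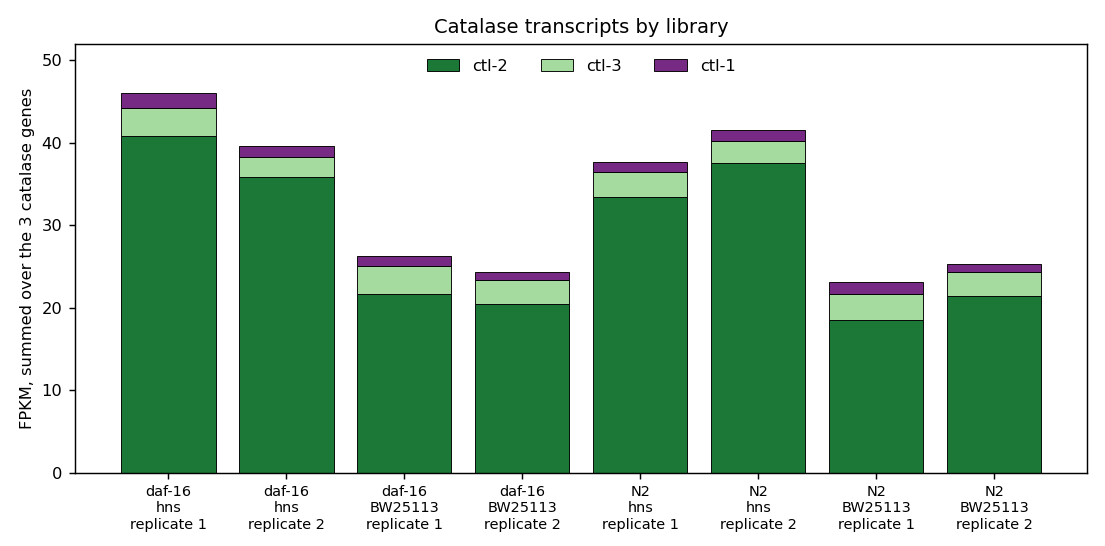
Stacked bars of the FPKM of ctl-2, ctl-3 and ctl-1 in each library, grouped by genotype and food, the height of a bar being the sum over the 3 genes. The sums reach 37.6 to 46.0 with hns food against 23.1 to 26.2 with BW25113 food, and ctl-2 makes up most of each bar.

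A coding gene on the opposite strand, Y54G11A.7, shares 65 nt of exon with ctl-2 in the annotation, and whether counting used strand is not given in the sources used here. Its level moved the other way. It had 15.4 and 15.8 FPKM in daf-16 with hns food against 53.4 and 57.3 FPKM with BW25113 food, and 19.6 and 16.4 FPKM in wild type with hns food against 56.3 and 52.3 FPKM with BW25113 food. The limma log2 fold change was -1.76 ± 0.10 in daf-16 and -1.54 ± 0.10 in wild type (SE, adjusted p = 0.00103 and 0.0023). The part of these fragments in the ctl-2 values was not tested. Catalase carries a heme group. In a list of heme transport and related genes, 5 of 6 tested genes passed as lower with hns food in each genotype, with 0 rising. Of all genes 0.206% passed as lower in daf-16 and 0.227% in wild type. The 5 were hrg-1, hrg-2, hrg-3, hrg-4 and asp-10. The list was chosen with earlier results of these data known, so its count is no independent test. Any part of heme supply in the ctl-2 values was not tested. One of the 5, hrg-2, passed in 11 of 17 alternatives in daf-16 and in 8 of 17 in wild type (limma adjusted p up to 0.21 and 0.157), and hrg-4 in 16 of 17 in daf-16. The heme importer gene hrg-1 gave -2.35 ± 0.12 in daf-16 and -2.31 ± 0.12 in wild type (SE, limma adjusted p = 0.000645 and 0.000806). The heme carrier gene hrg-3 averaged 44.5 ± 5.08 FPKM in daf-16 with hns food against 808 ± 19.7 FPKM with BW25113 food, and 29.5 ± 0.471 FPKM in wild type with hns food against 494 ± 10.5 FPKM with BW25113 food (SD, n = 2 each).

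The peroxiredoxin gene prdx-2 was the most abundant of the 10, its mean being above that of 98.85% of tested genes. It had 1800 and 1865 FPKM in daf-16 with hns food against 1759 and 2005 FPKM with BW25113 food, and 1725 and 1968 FPKM in wild type with hns food against 2032 and 2075 FPKM with BW25113 food. The foods overlapped in daf-16 and not in wild type, where 28.9% of tested genes also lay lower without overlap. The limma log2 fold change between foods was -0.04 (interval -0.28 to 0.21, adjusted p = 0.953) in daf-16 and -0.16 (-0.40 to 0.09, adjusted p = 0.458) in wild type. In each of the 4 groups sod-2, prdx-2 and msra-1 were lower in replicate 1 than in replicate 2, as was the FPKM sum of the library, and ctl-3 was higher.

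The largest change among the 9 tested genes was that of msra-1, whose product reduces the S form of methionine sulfoxide. It had 126 and 166 FPKM in daf-16 with hns food against 462 and 498 FPKM with BW25113 food. In wild type it had 108 and 148 FPKM with hns food against 420 and 423 FPKM with BW25113 food. All 4 libraries with hns food were lower than all 4 with BW25113 food, a separation seen in the lower direction for 4.19% of tested genes. The mean was 3.29-fold lower in daf-16 (-1.72 ± 0.18 on the log2 scale by limma, SE, interval -2.16 to -1.29, adjusted p = 0.0204). It was 3.30-fold lower in wild type (limma log2 fold change -1.73 ± 0.18, interval -2.17 to -1.30, adjusted p = 0.0198). The food effect in wild type minus that in daf-16 was -0.01 ± 0.25 (interval -0.62 to 0.61, limma adjusted p = 1.00). Averaged over genotypes the change was -1.73 ± 0.13 and passed in all 16 alternatives (limma adjusted p = 0.00267, 0.00108 to 0.022 over the alternatives). Within wild type msra-1 no longer passed without replicate 1 with hns food (0.0644) or without replicate 1 or 2 with BW25113 food (0.111 and 0.108), nor with only the groups compared (0.115). Within daf-16 it no longer passed whichever 1 of its 4 libraries was left out (limma adjusted p of 0.0607 to 0.17) or without replicate 2 of wild type with BW25113 food (0.0507), nor with only the groups compared (0.0688). Genotype gave 0.20 ± 0.18 with hns food and 0.19 ± 0.18 with BW25113 food (SE, limma adjusted p = 0.842 and 0.804).

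Of the cell type markers 0 passed for food in daf-16. In wild type 2 of 9 hypodermis and 2 of 12 embryo markers rose, where 0.645% of all genes did. Averaged over genotypes 4 of 9 hypodermis, 3 of 12 embryo and 1 of 10 muscle markers rose, against 1.24% of all genes. The summed FPKM of 8 intestine markers was 632 to 709 in daf-16 with hns food against 716 to 791 with BW25113 food, and 664 to 745 in wild type with hns food against 678 to 689 with BW25113 food. All 8 germline and all 11 oocyte and eggshell markers tested lay lower with hns food in wild type, with medians of -0.17 and -0.18 on the log2 scale. In daf-16, 6 of 8 and 9 of 11 lay lower, with medians of -0.08 and -0.04. Of all genes 49.1% lay higher in wild type and 48.4% in daf-16. Over genes that reached 5 FPKM in 2 libraries the medians were -0.05 in wild type and -0.02 in daf-16. Hypodermis markers had a median of 0.26 in daf-16 and 0.75 in wild type, and their summed FPKM overlapped between the foods in both genotypes. Embryo markers had a median of 0.11 in daf-16 and 0.59 in wild type, and their summed FPKM was 463 to 497 in daf-16 with hns food against 449 to 506 with BW25113 food, and 449 to 505 in wild type with hns food against 480 to 511 with BW25113 food. Neuron markers had medians of 0.24 and 0.35, muscle markers 0.08 and 0.14, and sperm markers -0.27 and 0.09. The part of these marker values in the ctl-2 and msra-1 values was not tested.

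Counted over the 9 tested genes, 1 passed with hns food in daf-16, msra-1, where 0.405% of all genes tested passed, 0.199% higher and 0.206% lower. In wild type 2 passed, ctl-2 higher and msra-1 lower, where 0.872% of all genes passed, 0.645% higher and 0.227% lower. Of the food effects averaged over genotypes 2 passed, the same genes, against 1.76% of all genes, 1.24% higher and 0.515% lower. For daf-16 against wild type 0 passed by limma with hns food, where 0.233% of all genes did (0.165% higher, 0.0687% lower), or with BW25113 food, where 0.261% did (0.151% higher, 0.11% lower). Averaged over foods 0 passed, where 0.831% of all genes did (0.563% higher, 0.268% lower), and in each of these 1 gene, sod-3, had an unadjusted p under 0.05, as did 7.84% of all genes with hns food, 9.12% with BW25113 food and 12.9% averaged over foods. Leaving out sod-3, the limma log2 fold changes for genotype lay between -0.09 and 0.20 with hns food and between -0.13 and 0.22 with BW25113 food. For the interaction 0 passed (0.0961% of all genes, 0.0412% higher and 0.0549% lower) and 0 had an unadjusted p under 0.05. The median log2 fold change of the 9 genes with hns food was -0.07 in daf-16 and -0.10 in wild type, against -0.01 and -0.00 over all genes tested.

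Across the 8 libraries the highest value over the lowest was 4.63 for msra-1 and 2.21 for ctl-2, against a median of 1.28 over 10247 tested genes with a mean of at least 5 FPKM. It was 1.20 for prdx-2, 1.23 for sod-2, 1.24 for sod-1 and 1.36 for sod-4. Among those 10247 genes, 95.7% had a smaller ratio than msra-1 and 29.6% had a smaller ratio than prdx-2.

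The genes whose profile was most like that of each changed gene were found by the root mean square difference of centred log2(FPKM + 1) values over the 8 libraries. For msra-1, among 10246 genes, these were R193.2 at 0.14, the heme transporter gene hrg-4 at 0.25 and W07B8.1 at 0.25. R193.2 averaged 10.4 FPKM in daf-16 with hns food against 32.4 FPKM with BW25113 food, and 8.62 FPKM in wild type with hns food against 28.6 FPKM with BW25113 food. The gene hrg-4 averaged 45.1 FPKM against 209 FPKM in daf-16 with hns and BW25113 food, and 39.9 FPKM against 188 FPKM in wild type with hns and BW25113 food. For ctl-2 they were C26F1.1 at 0.14, F41C3.2 at 0.15 and C26B9.3 at 0.15. C26F1.1 averaged 34.9 FPKM in daf-16 with hns food against 22.8 FPKM with BW25113 food, and 38.6 FPKM in wild type with hns food against 19.5 FPKM with BW25113 food.

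**Figure D4:**
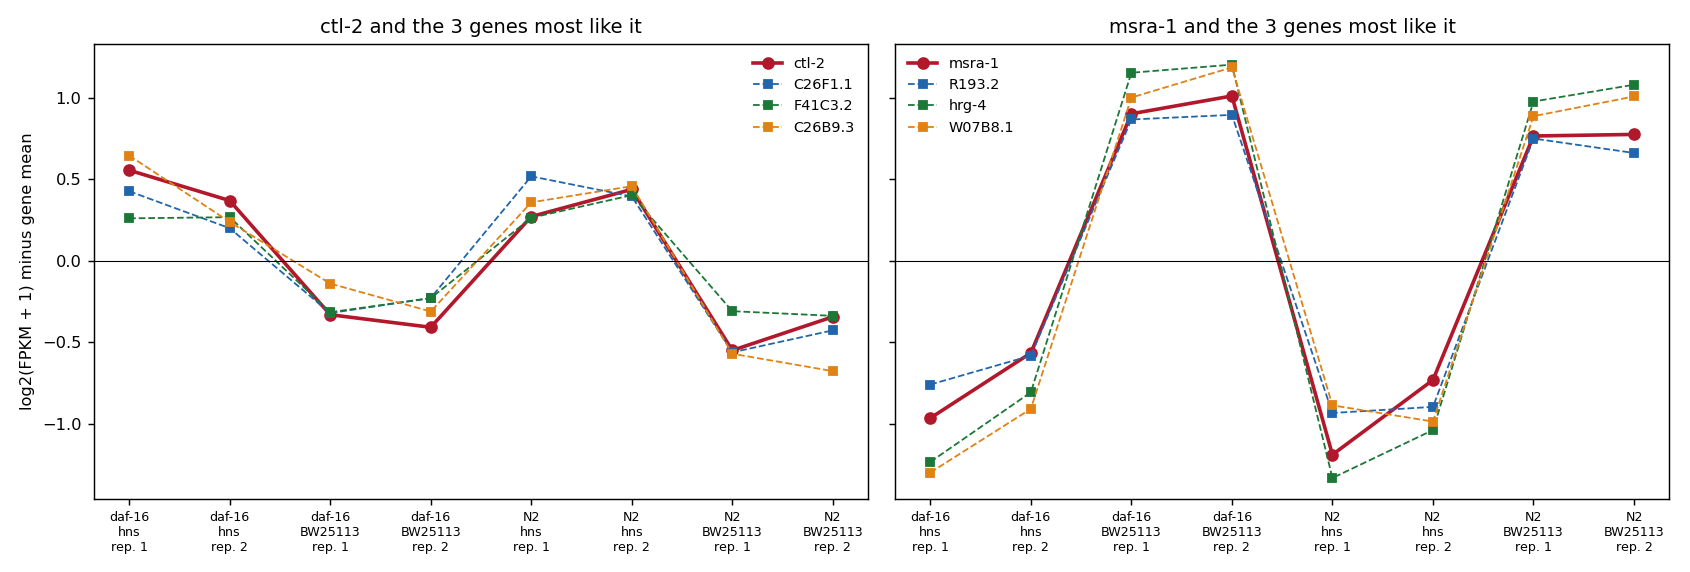
Log2(FPKM + 1) minus the gene's mean over the 8 libraries, for ctl-2 and the 3 genes most like it (left) and msra-1 and the 3 genes most like it (right), lines only joining the points of 1 gene. In the right panel every library with hns food lies below 0 and every library with BW25113 food above it, and in the left panel the reverse holds.

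The lists of thioredoxin, glutathione and NADPH genes held no gene that passed. The list of the thioredoxin and peroxiredoxin system beyond prdx-2 had 9 tested genes, among them prdx-3, prdx-6 and thioredoxin genes. Of these 9 genes 0 passed by limma in any of the 7 comparisons. At most 1 had an unadjusted p under 0.05 in any of them, against 3.7% to 19% of all genes over the 7 comparisons. Of 17 glutathione and glutaredoxin genes, among them the glutathione peroxidases, 0 passed and 0 had an unadjusted p under 0.05 in any comparison. Averaged over genotypes, 13 of these 17 lay lower with hns food, where 48.8% of all genes lay higher. Their median was -0.09 against -0.01 over all genes. The 6 tested genes of NADPH supply, which feeds both systems, had a median of -0.12, with 0 passing and at most 1 under an unadjusted p of 0.05.

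Of 9 tested oxidant-producing and peroxidase genes, which include the dual oxidase gene bli-3, 8 lay higher with hns food averaged over genotypes, with a median of 0.22, where 48.8% of all genes lay higher. By limma 0 passed in any comparison, and at most 4 had an unadjusted p under 0.05, in the averaged food effect, as did 19% of all genes. Of 16 peroxisome genes, the compartment of the ctl-2 product, 0 passed and the median was -0.03, with at most 2 under an unadjusted p of 0.05. Of 5 copper and manganese supply genes 0 passed, with a median of -0.09 and at most 1 under an unadjusted p of 0.05. Of 24 upstream regulators, daf-16 itself fell in the mutant and 0 passed for food, with at most 6 under an unadjusted p of 0.05, in the averaged food effect, where 19% of all genes were. Among them skn-1, the Nrf-type regulator of oxidative stress genes in the worm, gave a limma log2 fold change with hns food of 0.12 ± 0.10 in daf-16 and 0.01 ± 0.10 in wild type (SE, adjusted p = 0.857 and 0.961). Of the 24 regulators 6 had an unadjusted p under 0.05 for genotype on BW25113 food, daf-16 included, where 9.12% of all genes did. On hns food 2 did, where 7.84% of all genes did, and averaged over foods 5 did (12.9%). Averaged over foods 19 of 24 lay lower in daf-16, where 50.5% of all genes lay higher.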

How the data were processed

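RNA of whole worms was sequenced in 8 libraries, made with an mRNA kit of Lexogen per the labels' protocols. The authors deposited 1 table of FPKM, made per the submitters' processing notes with TopHat2 2.0.11, Cufflinks 2.2.1 and build ce10. Annotation, strand handling and the treatment of multiply matching fragments were not given in the sources used here. From the FPKM, log2(FPKM + 1) was computed, genes reaching 1 FPKM in 2 or more of the 8 libraries were kept, and limma 3.58.1 in R 4.3.3 fitted a linear model of group means using its trend option, with 4 residual and 2.32 prior degrees of freedom. There were 7 comparisons, 2 food effects, 2 genotype effects, their interaction and both averaged effects, and p-values were two-sided. The script was tested on simulated data. FPKM are not counts, so no count test was run. Overlaps and neighbours came from the Ensembl 115 annotation of WBcel235, another build, so no coordinates are given. The rule for naming genes took the 10 members, daf-16, skn-1, hrg-1, hrg-3 and hrg-4. It also took list genes that passed and the 3 genes most like each called member. Not every member is given by value in every comparison. Some genes the rule takes are given only as counts. Genes overlapping a member were added after their values were seen. The members and lists were chosen with earlier results of these data known. Alternatives changed the pseudocount, filter, scaling, variance model, samples fitted, replicate block or 1 library at a time.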

Additional observations from a re-analysis of the deposited data

How the results depend on the processing

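For hns food in wild type 127 genes passed (94 higher). This was 60 with no filter, 70 scaled to equal sums (42 higher), 85 with quantile normalization (52 higher), 204 with robust estimation, 42 with only the groups compared and 35 to 83 without 1 library. In daf-16 it was 59, or 31 to 61 without 1 library. For genotype on BW25113 food 38 passed (22 higher), against 23 scaled to equal sums (6 higher), 25 with quantile normalization (11 higher), 22 with no mean-variance trend, 22 with only the groups compared and 17 to 28 without 1 library. On hns food it was 34 (24 higher), 30 scaled to equal sums (17 higher) and 12 to 35 without 1 library. The interaction had 14, against 31 with no filter, 5 with the stricter filter, 23 with no mean-variance trend and 13 to 24 without 1 library. The averaged food effect had 256 (181 higher), against 140 with no filter, 169 scaled to equal sums, 194 with quantile normalization (110 higher) and 78 to 162 without 1 library. The averaged genotype effect had 121 (82 higher), against 105 scaled to equal sums (55 higher), 109 with quantile normalization (62 higher) and 47 to 103 without 1 library. Of the 9 genes, 2 passed for food in wild type, against 1 with no filter, 1 with quantile normalization, 1 with no mean-variance trend, 0 with only the groups compared and 0 to 1 without 1 library. In daf-16 1 passed, against 2 with the stricter filter, 2 scaled to equal sums, 2 with robust estimation, 0 with only the groups compared and 0 to 1 without 1 library. Averaged, 2 passed, or 1 to 2 without 1 library. For genotype and the interaction it was 0 to 0 without 1 library. The cause was not tested. Where a fit leaves a group with 1 library, that library is assumed to vary like the others.

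The labels number replicates 1 and 2 in each group, but nothing says that a number marks a shared batch. Deviations of same-numbered libraries correlated at 0.0219 to 0.161 across genes. With the replicate block 488 genes passed for food in wild type, 796 for the averaged food effect and 253 for the averaged genotype effect, and the number of the 9 genes that passed was the same as without it in each comparison.

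Depth is approximate, so counting error for sod-5, ctl-1, ctl-3 and sod-3 could not be given as an interval.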

Other observations

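Coding genes that overlap msra-1 and sod-3 on the opposite strand were looked at as well. The gene insc-1, which shares 41 nt of exon with msra-1, had 3.92 and 4.11 FPKM in daf-16 on hns food against 3.46 and 3.62 FPKM on BW25113 food, and 5.49 and 4.94 FPKM in wild type on hns food against 3.53 and 3.40 FPKM on BW25113 food (limma adjusted p = 0.855 and 0.151 in daf-16 and wild type). The gene lido-1, listed as C08A9.6 in the deposited table, shares 24 nt with sod-3 and had 9.86 to 12.6 FPKM over the daf-16 libraries against 12.5 to 13.5 FPKM over the wild-type libraries (limma log2 fold change averaged over foods -0.18 ± 0.09 SE, adjusted p = 0.478). Another, C08A9.3, shares 65 nt with sod-3 and had at most 0.0590 FPKM in any library. These genes were chosen after their values were seen.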
